A study of Mus musculus with 5 samples.

Results

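The 33 genes described here encode the enzymes of glycolysis and of the pentose phosphate pathway, the enzymes that set the rate of phosphofructokinase, and the carriers that bring glucose in and let lactate out. They were taken from a list of symbols. All 33 were found among the 21887 protein-coding genes of the mouse annotation used. H3K27ac is a histone acetylation found at active promoters and at enhancers. ChIPmentation, a chromatin immunoprecipitation with sequencing adapters added by the Tn5 transposase, gave 4 libraries of it and 1 input library. All 5 libraries came from mouse bone marrow cells sorted as CD45.2+, lineage-negative, Sca1+ and Kit+, labelled HSC/MPP (haematopoietic stem cells and multipotent progenitors), and all carried the same genotype, deletion of the methyltransferase genes Mll3 and Mll4, which peaks alone cannot check. No genotype without the deletion was analysed here. Age, strain, sex, the agent of the deletion and any pooling of animals are not given in the sources used here.

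The 4 libraries entered the data as 1 list of 22948 peaks over input. Each value below is therefore a single value of the authors for that list, with no replicate error, and no difference between 2 genes could be tested. Read totals are not in the list, so the depth behind a peak is unknown. The signal value is the authors' enrichment of a peak over background, a ratio. Its median over all peaks was 3.27, with quartiles of 2.69 and 4.62. A bulk list cannot tell a weak mark in all cells from a strong mark in a few. Of the 5 genes fixed as markers of the sorted cells, Ptprc, Kit and Flt3 had a peak at a gene end, while Cd34 and Ly6a, which encodes Sca1, had none. Of 9 lineage genes, 1 had one. Of the 3 neutrophil and monocyte and the 2 megakaryocyte genes, 0 had one, and of 4 erythroid genes, the globin gene Hbb-bt did. The share over all protein-coding genes was 36.2%. All 3 neutrophil and monocyte genes and all 5 markers of the sorted cells had a distal peak within 50 kb, against 43.1% of all genes. Of the 9 lineage genes 3 (33.3%) had one, of the 2 megakaryocyte genes 1, and of the 4 erythroid genes 0.

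Glycolysis splits glucose to pyruvate and yields ATP without oxygen. The pentose phosphate pathway branches off after the hexokinase step, makes NADPH and ribose phosphate, and returns sugars to glycolysis through transketolase and transaldolase. Quiescent haematopoietic stem cells are known for relying on glycolysis. Many steps are encoded by several genes whose products are called isoforms here, and these are known to differ between tissues: muscle, brain, liver and red cells each use their own forms.

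Of the 33 genes, 22 (66.7%) had a peak overlapping the 1 kb on either side of a gene end, against 36.2% of all protein-coding genes. A q-value of at most 0.05 left 21 (63.6%), against 34.4%, and a window of 2.5 kb left 22, against 39.3%. The difference was smaller under stricter rules. With the summit inside the window the count was 14 (42.4%), against 33.3%, and past a −log10 q limit of 5 it was 13 (39.4%), against 24.0%. A signal value of at least 4 also gave 13, against 23.2%. Gene ends were not always transcript starts, because the annotated span of a gene can begin upstream of its main transcripts. Annotated transcript starts were in the RefSeq promoter table for 32 of the genes, with 48 starts in all. Slc2a3 was not matched there. With the 1 kb on either side of such a start, 23 of the 32 (71.9%) had a peak, against 38.0% of the 17492 protein-coding genes with a start. The gene ends and the starts did not pick out the same genes. Hk1, Ldha, Pfkfb2 and Pfkfb4 had a peak at a start that lay inside the annotated span and none at an end. Aldoc and Tpi1 had a peak at the far end of the gene and none at a start. Counting both, 26 of the 33 genes had a peak, against 38.7% of all protein-coding genes. The other 7 were Pgam2, Eno2, Pklr, Ldhb, Slc2a1, Slc16a3 and Taldo1.

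Signal values at these genes were near those of other genes with a peak. The median of the strongest signal value was 4.91 over the 22 members with a peak at an end, against 4.71 over all 7929 genes with one. Among the 26 members with a peak at either place, the strongest signal values ran from 2.14 at Hk2 to 7.77 at Pfkfb3, and 14 of them lay above the median of all genes with a peak.

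**Figure D1:**
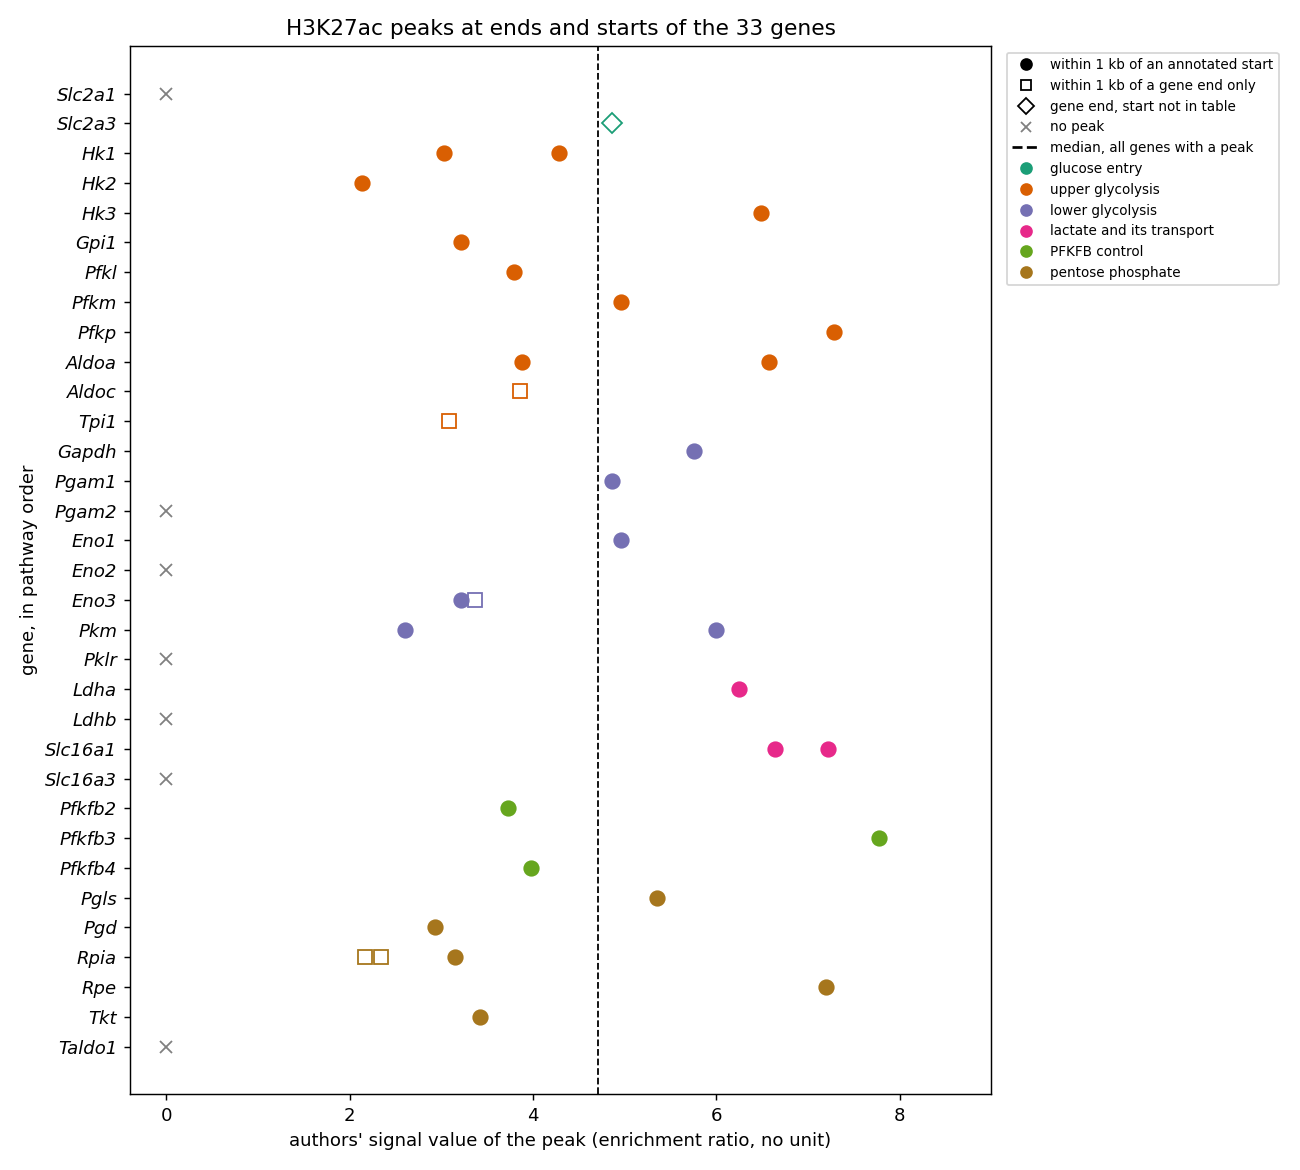
Signal value of every peak at an end or annotated start of the 33 genes, in pathway order, with colours for the parts of the pathway. Filled circles lie at an annotated start, open squares at a gene end only, the open diamond is Slc2a3, and crosses at 0 mark the 7 genes without a peak; the dashed line is the median of 4.71 over all genes with a peak at an end. Pfkfb3, Pfkp, Slc16a1 and Rpe are the 4 genes with a signal value above 7.

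Isoforms of the same enzyme were compared next. In all 5 pairs whose starts were both annotated (aldolase, phosphoglycerate mutase, pyruvate kinase, lactate dehydrogenase and monocarboxylate transporter), 1 isoform had a peak at its start and the other had none. The share of all genes with a peak at a start was 38.0%, and how often other gene pairs split in this way was not tested. The 250 bases before the first listed start are given for 3 of these pairs, 5′ to 3′ on the strand of the gene, from RefSeq on GRCm38.p6. These 3 pairs are shown because the partners differ in base composition as well as in the mark. Of the pairs not shown, Slc16a1 held 42 CpG dinucleotides in the 300 bases around its start and Slc16a3 held 36. The Aldoa starts, all with a peak, held 23, 24 and 0, and the Aldoc starts, without one, held 8 and 3. Capitals mark the letters ACGTG (the core of the sites bound by hypoxia-inducible and E-box factors) and GGGCGG (the GC box), each on either strand. A match is a description of letters, not of binding.
Pgam1: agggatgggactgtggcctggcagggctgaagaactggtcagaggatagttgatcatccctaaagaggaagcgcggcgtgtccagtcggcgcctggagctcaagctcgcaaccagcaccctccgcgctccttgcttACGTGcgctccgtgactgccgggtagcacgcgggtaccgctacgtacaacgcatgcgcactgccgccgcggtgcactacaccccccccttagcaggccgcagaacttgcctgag
Pgam2: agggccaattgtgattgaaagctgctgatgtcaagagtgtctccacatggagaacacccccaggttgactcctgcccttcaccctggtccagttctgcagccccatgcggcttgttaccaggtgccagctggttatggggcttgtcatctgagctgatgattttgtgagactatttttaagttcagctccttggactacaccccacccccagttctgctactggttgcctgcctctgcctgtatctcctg
Pkm: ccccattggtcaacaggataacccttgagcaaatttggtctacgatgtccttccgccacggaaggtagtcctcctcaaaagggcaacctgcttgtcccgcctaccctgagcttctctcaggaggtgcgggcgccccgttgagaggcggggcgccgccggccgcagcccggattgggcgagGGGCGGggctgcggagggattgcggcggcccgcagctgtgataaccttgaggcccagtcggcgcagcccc
Pklr: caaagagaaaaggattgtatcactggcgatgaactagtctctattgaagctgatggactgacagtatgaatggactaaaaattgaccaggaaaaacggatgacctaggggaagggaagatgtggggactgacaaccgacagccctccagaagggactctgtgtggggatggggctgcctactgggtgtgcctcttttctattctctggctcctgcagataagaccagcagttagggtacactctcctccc
Ldha: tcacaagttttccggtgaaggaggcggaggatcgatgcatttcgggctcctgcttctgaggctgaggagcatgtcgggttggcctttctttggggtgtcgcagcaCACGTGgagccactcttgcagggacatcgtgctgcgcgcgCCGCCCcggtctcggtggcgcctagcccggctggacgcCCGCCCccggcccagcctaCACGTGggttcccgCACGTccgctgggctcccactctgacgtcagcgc
Ldhb: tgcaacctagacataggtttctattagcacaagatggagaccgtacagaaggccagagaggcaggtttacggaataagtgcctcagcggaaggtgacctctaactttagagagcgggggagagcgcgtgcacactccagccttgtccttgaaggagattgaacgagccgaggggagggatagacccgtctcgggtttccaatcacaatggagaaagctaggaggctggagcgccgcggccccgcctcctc

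The Pgam1 sequence lies on chromosome 19 (chr19:41911621-41911870, plus strand) and holds 22 CpG dinucleotides. The Pgam2 sequence (chr11:5803797-5804046, minus strand) holds 1. The Pkm sequence (chr9:59656326-59656575, plus strand) holds 21 CpG and the Pklr sequence (chr3:89135892-89136141, plus strand) 3. The contrast was smaller for lactate dehydrogenase. Ldha (chr7:46845554-46845803, plus strand) had 25 CpG and Ldhb (chr6:142507958-142508207, minus strand) 14. Ldha held 5 matches to ACGTG counted over both strands, of which 4 came from a pair of CACGTG palindromes that each match on both strands, and 2 matches to GGGCGG. Neither set of letters was found in the windows of Pgam2, Pklr and Ldhb.

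Glucose enters blood cells through the transporters GLUT1 (Slc2a1) and GLUT3 (Slc2a3). Slc2a3 had a peak at its high-coordinate end, from 122800888 to 122802591 on chromosome 6, with a signal value of 4.86, and a stronger distal peak 8.31 kb outside that end with a signal value of 6.76. Slc2a1, the widely expressed transporter, had no peak at an end or start. The summit nearest to its start lay 65.1 kb from it, at Zfp691. Which end of Slc2a3 is the start was not taken from the table, so its peak is counted as a peak at an end.

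Hexokinase traps glucose in the cell by phosphorylation. Hk3, the isoform known from white blood cells, had the strongest peak of the family, with a signal value of 6.49. Its 2289 bp lay wholly upstream of the annotated start, with the summit 1722 bp away. Hk1, the widely expressed isoform, came next with 4.28. Its peaks lay at the second of 2 annotated starts, 39.5 kb inside the gene, and flanked that start on both sides, with a gap of 352 bp that held it. The other start of Hk1 had no peak. The upstream peak of the pair, with a signal value of 3.03, also overlapped the non-coding gene Hk1os. Hk2, the form induced by insulin and hypoxia, had a peak of 397 bp with a signal value of 2.14 and a q-value of 0.867. It ranked 22337th of the 22948 peaks and was lost when a q-value of at most 0.05 was required, so its presence was not resolved.

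Glucose-6-phosphate isomerase, encoded by Gpi1, had a signal value of 3.21. Phosphofructokinase commits sugar to glycolysis, and each of its 3 isoforms had a peak at a start. Pfkp, the platelet form, led with 7.28, followed by the muscle form Pfkm with 4.96 and the liver form Pfkl with 3.79. The Pfkm peak lay at the most upstream of 4 annotated starts and also reached the end of the neighbouring gene Senp1. The next start, 15.9 kb downstream, had none, and the peak cannot be assigned to Pfkm or Senp1 alone. In the aldolase pair, Aldoa had a signal value of 6.58 and a second peak of 3.88 at its downstream starts, with 176 bp between them. Aldoc, the brain form, had a peak of 3.86 beyond its far end that also lay at the end of Pigs, 4.43 kb from the nearest Aldoc start. Tpi1, triosephosphate isomerase, is a single-copy step. Its peak of 3.09 was shared with Spsb2 and lay 4.91 kb from the Tpi1 start, which itself had none. All 10 genes of this upper part of glycolysis had a peak at an end or a start, against 38.7% of all genes, and 8 had one at a start, against 38.0%. Several of these peaks were weak: past the −log10 q limit of 5, Hk2, Gpi1, Pfkl, Aldoc and Tpi1 had none at an end.

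In the lower part, from glyceraldehyde phosphate to pyruvate, 5 of 8 genes had a peak at a start, against the same 38.0% of all genes. Gapdh had a signal value of 5.75 over 1819 bp, starting just downstream of the annotated start. Pgam1, the widely expressed mutase, had 4.86 on chromosome 19 (41912061 to 41913333), and Pgam2, the muscle form, had none. The summit nearest to the Pgam2 start was 14.8 kb from it, at Dbnl. Eno1, the ubiquitous enolase, had 4.96 over 2030 bp and its 3 annotated starts all lay in that region. Eno2, the neuronal form, had no peak, and the nearest summit was 23.6 kb from its start, at Atn1. Eno3, the muscle form, had peaks of 3.36 and 3.21 that were both shared with Pfn1, the profilin gene beside it. The summit of the closer one was 1465 bp upstream of the annotated Eno3 start. Pkm, the pyruvate kinase of most tissues, had a signal value of 5.998 on chromosome 9 (59656502 to 59657488) with the start inside the peak. Pklr, the form of liver and red cells, had none, the nearest summit being 28.4 kb from its nearest start.

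Pfkm, Pgam1, Eno1 and Slc2a3 carried the same −log10 p of 12.1 and signal values of 4.86 or 4.96, so their order means nothing.

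**Figure D2:**
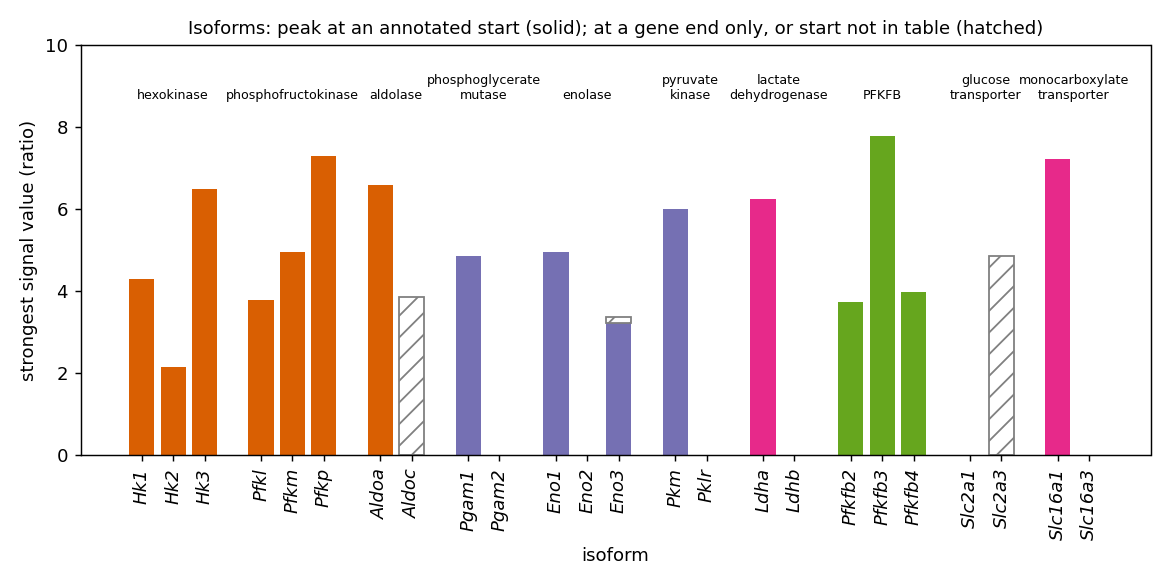
Strongest signal value (ratio, vertical axis from 0) of each isoform in the 10 enzyme families, with bars in the colour of the pathway part. Solid bars are peaks at an annotated start; hatched bars are peaks at a gene end only, or at Slc2a3, whose start was not matched; isoforms without a bar had no peak. Hexokinase, phosphofructokinase and PFKFB are the 3 families in which every isoform has a solid bar. Among these bars, that of Hk2 is a peak with a q-value of 0.867, and those of Pfkm and Pfkfb2 are peaks shared with Senp1 and Yod1.

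Lactate dehydrogenase turns pyruvate to lactate and back. Ldha, the form that favours lactate, had a single peak on chromosome 7 (46845850 to 46847020) whose signal value was 6.24 at a −log10 q of 14.5. It filled the space between 2 annotated starts that lie 1278 bp apart, with the summit 654 bp downstream of the first of them. The annotated span of Ldha begins 3.53 kb upstream of that start, which is why no peak was counted at its end. Ldhb, the form that favours pyruvate, had no peak at its start, no peak at an end and no distal peak within 50 kb. The closest summit of any kind was 120.4 kb from its start, at Recql and Golt1b. Among the 9 genes without a peak at a start whose nearest peak was measured, this was the longest distance.

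Lactate leaves cells through the monocarboxylate transporters. Slc16a1 (MCT1) had a peak on each side of its start, with signal values of 7.22 upstream and 6.64 downstream and a gap of 242 bp that held the start. Slc16a3 (MCT4), known from strongly glycolytic cells, had none, although its promoter window had 36 CpG dinucleotides per 300 bases, against 42 for Slc16a1. The nearest summit was 41.7 kb from its start, at Csnk1d, in a peak with a signal value of 8.91. The partner without a peak was thus rich in CpG here, unlike Pgam2 and Pklr.

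The bifunctional PFKFB enzymes make and remove the sugar bisphosphate that activates phosphofructokinase. All 3 genes had a peak at a start, against 38.0% of all genes. At a gene end only Pfkfb3 had one, which is 33.3% of the family, against 36.2% of all genes. Pfkfb3, whose product strongly favours making the activator, had the highest signal value of the 33 genes. Its peak on chromosome 2 (11552624 to 11554769) had a signal value of 7.77, 2146 bp of width and rank 1463 of the list. A second annotated start of Pfkfb3, 51.8 kb downstream, had none. Pfkfb4 had 3.98 at its start, and Pfkfb2 had 3.73 in a peak shared with its neighbour Yod1. The Pfkfb3 value was 1.95 times the next in the family.

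In the pentose phosphate pathway, 5 of 6 genes had a peak at a start, against 38.0% of all genes. Rpe, which interconverts ribulose and xylulose phosphates, had the strongest, with a signal value of 7.19. Pgls, the lactonase of the oxidative branch, had 5.35, and its peak of 2380 bp held the start. Pgd, the dehydrogenase that follows it and makes NADPH, had 2.94 over 465 bp. Rpia, which makes ribose phosphate, had 3.15. The transketolase gene Tkt had 3.43 in a peak of 2695 bp, the widest at any member. Taldo1, transaldolase, had none although its window held 22 CpG dinucleotides, and the nearest summit lay 22.5 kb from its start, at Gatd1. Of these values, those of Pgls and Rpe were above the median of all genes with a peak, and those of Pgd, Rpia and Tkt below it. Past the −log10 q limit of 5, Pgd, Rpia and Tkt had no peak at an end.

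Shape was compared next. For the 23 members with a peak at a start, the strongest such peak had a median width of 1175 bp, against 1123 bp over all 6647 such genes. An annotated start lay inside that peak in 7 members (30.4%), against 49.9% of all genes. Elsewhere it ended upstream of the start, as at Hk3, Pgd and Rpia, or began downstream of it, as at Gapdh, Pfkp and Rpe. Among members with exactly 1 annotated start, the summit was downstream of it in 8 of 14 (57.1%), against 70.7% of all such genes. A peak was shared with another protein-coding gene in 3 of the 23 (13.0%), against 28.3% of all genes. These shares rest on few genes and were not tested.

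**Figure D3:**
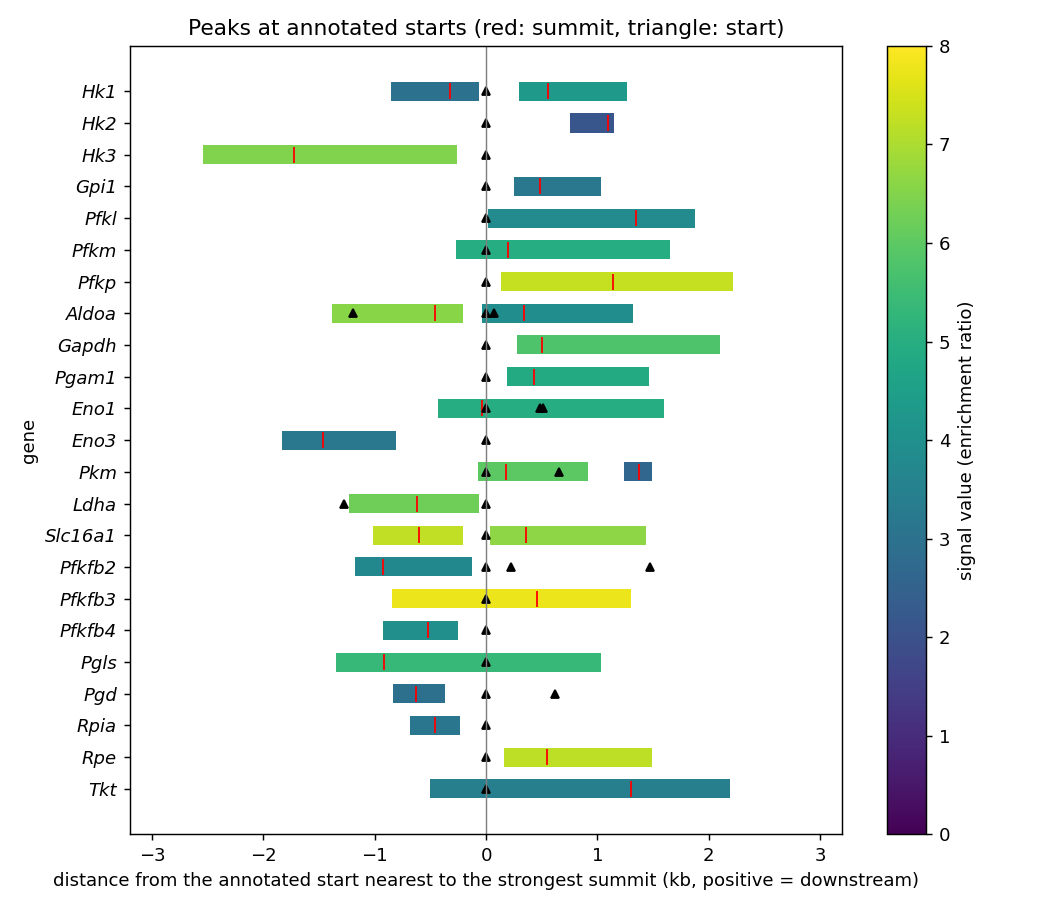
Peaks at annotated starts of the 23 members, drawn in the direction of transcription, with distance in kb from the start nearest to the strongest summit. Bars are peaks coloured by signal value, red ticks summits and triangles annotated starts. The start lies between a pair of peaks at Hk1 and Slc16a1, and a start lies inside the strongest peak at Aldoa, Eno1, Pkm, Pfkm, Pfkfb3, Pgls and Tkt.

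The bases around the starts were compared over the windows of 300 bases, 250 before and 50 after a start. Starts with a peak held a median of 21 CpG dinucleotides in the members (31 starts of 23 genes) and 22 over all genes. Starts without a peak held 9 in the members (17 starts) and 6 over all genes. Both medians of the members lay within a few CpG of those over all genes. The lowest number at a start with a peak was 0, at the Aldoa start furthest upstream, and the highest at a start without one was 36, at Slc16a3. Matches to ACGTG on either strand were found at 39.6% of member starts, against 20.9% of all starts. Among starts with a peak the shares were 41.9% and 27.7%. The longer CACGTG, which contains ACGTG, was found at 10.4% of member starts and 7.84% of all. The GC box GGGCGG was found at 54.2% and 46.2%, CCAAT at 37.5% and 38.2%, and TATAAA at 6.25% and 12.6%. Among starts with a peak, GGGCGG was found at 64.5% of member starts and 66.3% of all, CACGTG at 12.9% and 10.6%, CCAAT at 41.9% and 38.0%, and TATAAA at 0.00% and 6.40%. Starts of the same gene can overlap, so these are not independent.

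**Figure D4:**
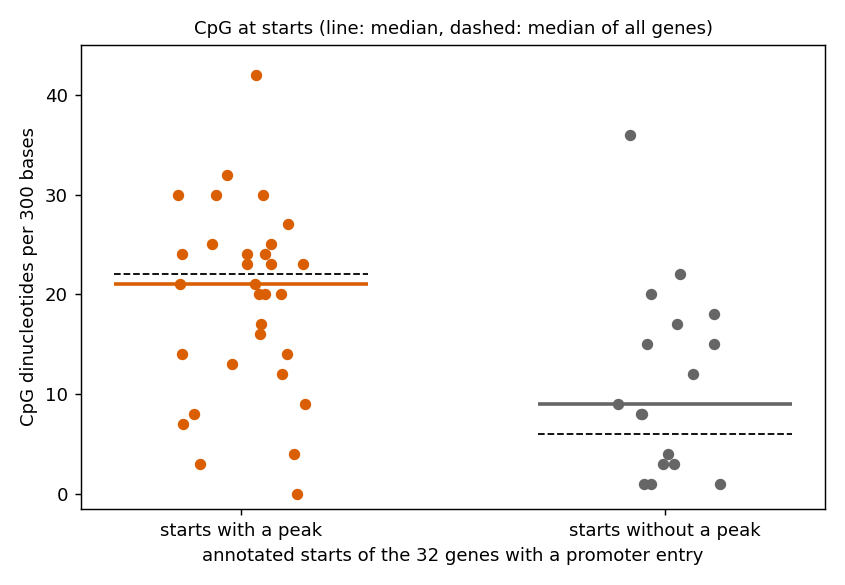
CpG dinucleotides per 300 bases at each of the 48 annotated starts of 32 members, split by whether a peak lay within 1 kb. Each point is a start, coloured lines are medians over members (21 and 9) and dashed lines medians over all genes (22 and 6). The point at 36 on the right is Slc16a3.

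Distal peaks were counted where the summit was more than 1 kb from every protein-coding gene end and within 50 kb of an end of the member, leaving out the peaks already counted at an end of that member (their summit can lie beyond 1 kb, as at Hk2 and Pfkl). Of the 33 genes, 23 (69.7%) had at least 1, against 43.1% of all protein-coding genes, and there were 51 such peaks. The difference depended on the rule. With a limit of 25 kb 19 members (57.6%) had one, against 29.3%, and with 100 kb 27 (81.8%), against 58.4%. A q-value of at most 0.05 gave 19, against 38.6%, and counting a peak only for the gene with the nearest end gave 12 (36.4%), against 20.5%. It was small under 2 rules. Past a −log10 q limit of 5, 8 members (24.2%) had one, against 21.6%. Without peaks at an annotated start of any protein-coding gene, 14 (42.4%) did, against 36.9%. Of the 51 peaks, 7 at 6 genes (Hk1, Aldoa, Eno3, Pkm, Ldha and Pfkfb4) lay within 1 kb of an annotated start of the member itself. The one at Pkm was a second, small peak with a signal value of 2.60 and a q-value of 0.0604. The other 44 lay at 18 genes (54.5%, against 42.0% of all genes counted the same way). Their signal values ran from 1.92 to 6.76. The median was 2.88, against 2.97 for all 15480 peaks of the list with the summit more than 1 kb from every end. A q-value above 0.05 was attached to 12 of the 44, and 5 passed the −log10 q limit of 5. In 23 of the 44 the nearest gene end belonged to the member, and these were spread over 7 genes (21.2%, against 18.8% of all genes), namely Hk3, Pfkp, Pfkfb3, Slc2a3, Slc16a1, Rpia and Rpe.

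Pfkfb3 had the most, with 7 distal peaks, all inside the gene and nearest to it, at signal values from 2.27 to 3.27. It thus combined the strongest start peak with the longest row of weak internal ones. Pfkp had 6, of which 5 lay inside the gene, with signal values of up to 2.94, and 3 were nearer to an end of Pitrm1. Rpia also had 6, and a further pair of peaks with q-values above 0.05 at its far end. The gene lies 39.0 kb from Igkc, the constant region of the immunoglobulin kappa light chain, and 6 peaks, the pair included, had their summit between Igkc and the low-coordinate end of Rpia, with signal values from 2.17 to 3.70. All were on the side of Rpia that is away from its start. The list gives no link of a peak to a gene, so whether these belong to Rpia or to the light chain locus was not tested.

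Apart from the peaks at a start of the member itself, the strongest distal peaks were at Slc2a3, Aldoc and Pgd. The Slc2a3 peak of 6.76 overlapped no annotated gene and had Slc2a3 as its nearest gene. That of Aldoc, with a signal value of 6.46, was inside Spag5, and that of Pgd, with 5.12, inside Cenps, both nearer to that other gene. No distal peak, apart from those counted at an end, was found for 10 members, namely Hk2, Pfkl, Tpi1, Pgam1, Eno1, Slc2a1, Ldhb, Slc16a3, Pfkfb2 and Taldo1.

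**Figure D5:**
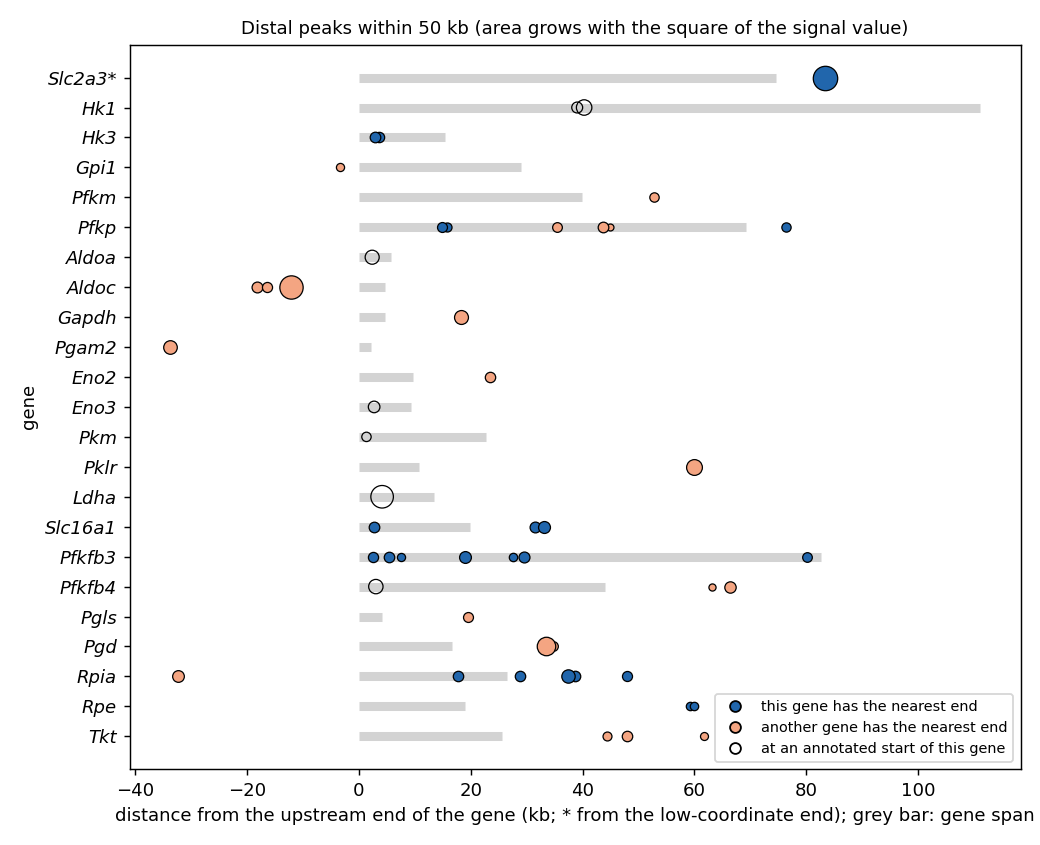
Distal peaks within 50 kb of the 23 members that had one, by distance in kb from the upstream end of the gene (for Slc2a3 from the low-coordinate end). Grey bars are gene spans, circle area grows with the square of the signal value, and colours give whether the member or another gene has the nearest end; open circles lie at an annotated start of the member. Pfkfb3 carries 7 filled circles along its span, and the largest circle is the one beside Slc2a3.

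Other genes of sugar metabolism were counted for comparison. Of 22 further pathway genes, 10 (45.5%) had a peak at an end, against the 36.2% of all genes. The strongest were at Rbks, ribokinase (16.8, at a start shared with Babam2), Shpk, sedoheptulokinase (5.91), and G6pdx, which encodes the first enzyme of the pentose phosphate pathway and lies on the X chromosome (4.59). Pgk1, also on X and the missing step between Gapdh and Pgam1, had 2.86. The testis form Ldhc and the gluconeogenic genes Fbp1 and Fbp2 had none. Of the 30 genes of pyruvate entry and the citric acid cycle, 26 (86.7%) had one, with a median of 4.44. Among the strongest were Pdhb, a subunit of pyruvate dehydrogenase (11.4), and Mpc2, part of the mitochondrial pyruvate carrier (10.7). No member of the 33 reached these values. Among the 19 regulators, 13 (68.4%) had a peak at an end, with Foxo1 (12.4), Foxo3 (12.2) and Arnt, the partner of the hypoxia-inducible factors (9.77), at the top. Hif1a had none at an end and 4.497 at a start, and Myc had 4.44. No difference between these lists was tested.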

How the data were processed

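H3K27ac ChIPmentation and input libraries of sorted mouse cells were analysed from 1 deposited peak list of the 4 H3K27ac libraries. BWA, MACS2 and the build mm10 are named in the submitters' processing notes, with neither version nor role; filters and the treatment of reads with several matches are not given in the sources used here. Many of these genes have processed copies elsewhere in the genome, so this could affect peaks over exons. The list has no header. Its columns were read by the narrowPeak layout: the deposited score, the authors' signal value (an enrichment ratio over background), the deposited −log10 p and −log10 q, and the deposited offset of the summit from the peak start.

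Peaks were joined to RefSeq GRCm38.p6 gene spans and promoter windows, the assembly that UCSC names mm10, with Python 3.11.15, pandas 2.3.3 and NumPy 2.4.6. A peak was at an end or start where it overlapped the 1 kb on either side. Distal peaks were counted within 50 kb, without peaks at an end of the same gene. Coordinates are 1-based. The joins were tested on planted peaks. The members and lists were chosen with earlier results of these data known. All 33 members are named; of the other lists, genes from the 3 strongest and those that help to read the members, the latter chosen after their values were seen. A few genes of these lists are counted but not reported here by name. Alternatives were peaks past a −log10 q limit of 5, a q-value limit of 0.05 or a signal value limit of 4, a 2.5 kb window, summits in place of overlap, starts in place of ends, and other distal limits. No test between samples was possible.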

Additional observations from a re-analysis of the deposited data

How the results depend on the processing

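Of 22 recomputed values, 16 stayed within 1.5 times the reported one and 6 did not. The number of members with a peak at an end was 13 of 33 (39.4%) past the −log10 q limit of 5 (24.0% of all genes) and the same 13 genes past the signal value limit of 4 (23.2%). It was 14 (42.4%) with the summit inside the window (33.3% of all genes), because summits of Hk2, Hk3, Pfkl, Pfkp, Aldoa, Tpi1, Gapdh and Tkt lay beyond 1 kb. It was 21 with a q-value of at most 0.05, 22 with 2.5 kb and 23 with starts only. The number with a distal peak was 8 (24.2%) past the −log10 q limit of 5 (21.6% of all genes), 12 (36.4%) with only peaks nearest to the member (20.5%) and 14 (42.4%) without peaks at annotated starts (36.9%), an alternative added after the data were seen, as were starts only for the isoforms and for the median. The median strongest signal value ranged from 4.91 to 5.998. The highest value was that past the −log10 q limit of 5, where the median over all genes with a peak was 5.81. Of the 9 families with a leading isoform at an end, 9 kept it past the −log10 q limit of 5 and in the 2.5 kb window. By width, the aldolase lead passed to Aldoc. With starts only, 8 kept theirs and Ldha led its family, while Slc2a3 had no start to count.

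No paired analysis was possible because all libraries share 1 peak list, and leaving out a library was not possible either. The depth is unknown, and a gene without a peak is not shown to lack H3K27ac.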
